A study of Homo sapiens with 6 samples.

Results

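The stop codon windows are the stretches from 60 nt before to 60 nt after the last nucleotide of the coding sequence, 121 nt each, which end the coding region and open the 3′ UTR of an mRNA. They were taken on coding transcripts with a mean of at least 1 listed reverse transcriptase (RT) stop per nucleotide in each of the 4 libraries treated with dimethyl sulfate (DMS). Of 13945 coding transcripts in the files, 1065 passed this minimum, and 1012 of them, each from another gene, could be matched to an annotated stop codon on GRCh37. The lowest mean over the 4 DMS libraries was 1.002 for EMC7, the last window inside the minimum, and 0.9997 for SERP1, the first outside it. In 909 windows all 60 nt after the stop codon lay before the last listed nucleotide of the transcript, 3 windows had no such nucleotide after the stop codon, and the others ended early. The stop codon lay in the last exon in 949 windows. It was UAA in 383 windows (37.9%), UGA in 433 (42.8%) and UAG in 196 (19.4%).

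Translating ribosomes unwind an mRNA as they read it and leave it at the stop codon, where release factors free the finished protein. The sequence before the stop codon is therefore cleared of structure and covered by ribosomes in turn, while the sequence after it is open to RNA-binding proteins and to folding. DMS methylates A and C where they are not base-paired, and RT halts at these modified bases. It also methylates G at N7 where that position is not engaged in a G-quadruplex. RNA G-quadruplexes (rG4s), stacks of planar rings of 4 Gs held by K+, halt RT themselves, and Gs methylated at N7 can no longer form them, so DMS lowers this halt where the G was free.

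All libraries were made from poly(A)-selected RNA of U2OS, a human osteosarcoma cell line. In 2 libraries without DMS, RT took place in 150 mM K+ or, by the sample labels, 150 mM Na+. The study's results also name Na+ for this comparison, while its methods name Li+. The RNA of 2 in vitro libraries was refolded and modified in 150 mM K+ or in 150 mM Li+, with RT in K+. Cells of the 2 in vivo libraries were treated with 8% DMS for 5 min, either unstressed or after 2 h of starvation in Hank's balanced salt solution, with RT in 150 mM K+. There was 1 library per condition, so no comparison here has a replicate check and no p-value was calculated. Intervals are 95% and cover counting error only, not the spread between cultures, between genes or between sites. The names of the deposited files give the 2 libraries without DMS the opposite cations to their labels. The labels were followed, and both are called here by their label.

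The listed stops summed to between 12999691 (unstressed) and 35371061 (library labelled K+), and those within the windows to between 1181958 (unstressed) and 2735213 (starved). On the transcripts of the windows, 51.1% to 51.9% of the stops were at A or C without DMS, 78.8% to 79.6% in vitro, 85.9% in unstressed and 75.3% in starved cells. Since only nucleotides with at least 3 stops are listed, 82.2% of the A nucleotides but 18.6% of the U nucleotides of the windows were listed in the unstressed library. The level of a nucleotide is its stop count over the mean of the same base in the same transcript, with unlisted nucleotides at 0. The 5 mesenchymal markers VIM, COL1A1, LMNA, CD44 and SPARC had from 862 to 125127 listed stops in every library. The starved library was low in LMNA, COL1A1 and SPARC, with 862, 3020 and 7280 stops beside 5592, 8927 and 15675 in the unstressed library, though its total of 24014417 was the larger. VIM, with 71722 and 45404, and CD44, with 3582 and 2700, were higher in the starved than in the unstressed library. Of 9 markers of other cells, CD3E, KRT19 and ALB had none in any library, PTPRC, CDH1 and SYP had at most 35, EPCAM and HBB at most 315, and TUBB3, which cultured cells often express, from 422 to 2312.

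Sequences were read from the GENCODE transcripts on GRCh37, in the sense of the mRNA. The first set shows the stop codon, in capitals, of the 3 genes known for readthrough that passed, since the bases right after UGA are known to set how often ribosomes read on. MDH1 lies at chr2:63834104-63834133 on the plus strand, LDHB at chr12:21788464-21788493 on the minus strand and MTCH2 at chr11:47640373-47640402 on the minus strand, each in the last coding exon, which is also the last exon.
MDH1: uuucuuuccucugccUGAcuagacaaugau
LDHB: gaccuaaaagaccugUGAcuagugagcucu
MTCH2: cugaaaauguuaauuUGAagauguggggca
Of 1012 windows, 2 (0.198%), those of MDH1 and LDHB, had the letters UGACUA with UGA as the stop codon.

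The second set shows the stretch up to the G, in capitals, with the largest cation-dependent stop of its window, 1 for each of 4 genes. MAGEA4 lies at chrX:151093104-151093133 (plus, exon 3 of 3), NAXE at chr1:156563861-156563890 (plus, exon 6 of 6), MAGOH at chr1:53692683-53692712 (minus, exon 5 of 5) and ERH at chr14:69847223-69847252 (minus, exon 4 of 4). The stretch of NAXE holds the stop codon, and the other 3 lie in the 3′ UTR.
MAGEA4: ccagggcuguggggaaggggcagggcuggG
NAXE: cuaucgucugcagugagggaaggugggugG
MAGOH: aauauugguguggacauggggggugggugG
ERH: guguuggaagcacuggggggguuggggugG

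The levels at A and C rose across the stop codon in all 6 libraries, and most of all in unstressed cells. Averaged over A and C, the level from 60 nt before the stop codon up to it and the level over the 60 nt after it were 1.43 and 1.57 in the library labelled K+ and 1.43 and 1.56 in the library labelled Na+. They were 1.31 and 1.60 in vitro in K+ and 1.35 and 1.61 in vitro in Li+. They were 1.44 and 1.93 in unstressed cells and 1.53 and 1.84 in starved cells. The step, the level after over the level before, was thus 1.10 (1.09 to 1.10) and 1.09 (1.08 to 1.10) without DMS, 1.23 (1.22 to 1.23) and 1.19 (1.19 to 1.20) in vitro, 1.34 (1.33 to 1.35) in unstressed and 1.21 (1.20 to 1.21) in starved cells. Before the stop codon the starved library was the highest of the 6, and after it the unstressed library was.

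The step was smaller in starved than in unstressed cells, with a ratio of 0.900 (0.893 to 0.908). It was larger in unstressed cells than in vitro in K+, with a ratio of 1.09 (1.08 to 1.10), while starved cells and RNA in vitro in K+ differed little, with a ratio of 0.984 (0.975 to 0.992). In vitro, the step in K+ over that in Li+ was 1.03 (1.02 to 1.04), and without DMS the step of the library labelled K+ over that labelled Na+ was 1.005 (0.997 to 1.013), an interval that holds 1. In the 909 whole windows the starved-over-unstressed ratio of the steps was 0.870 (0.862 to 0.878). In windows with at least 10 stops per nucleotide of the base in each DMS library (281 windows for A, 110 for C) it was 0.957 (0.949 to 0.965), and the steps were then 1.13 in vitro in K+, 1.20 in unstressed and 1.15 in starved cells. The level after the stop codon was then 1.78 in unstressed and 1.80 in starved cells, so the order of the 2 libraries after it was not that over all windows. The starved step was then the larger against RNA in vitro in K+, with a ratio of 1.02 (1.01 to 1.03), so the order of these 2 turned in this set. The set also holds other genes, since 70 of its 281 windows belong to ribosomal protein mRNAs, with a starved-over-unstressed ratio of 1.17 (1.155 to 1.19), and without them the ratio was 0.918 (0.908 to 0.928). In the 226 of these windows that were whole it was 0.9075 (0.899 to 0.916). The share of stops at A or C also differed between the 2 in vivo libraries, as given above, and its part in these ratios was not tested.

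**Figure D1:**
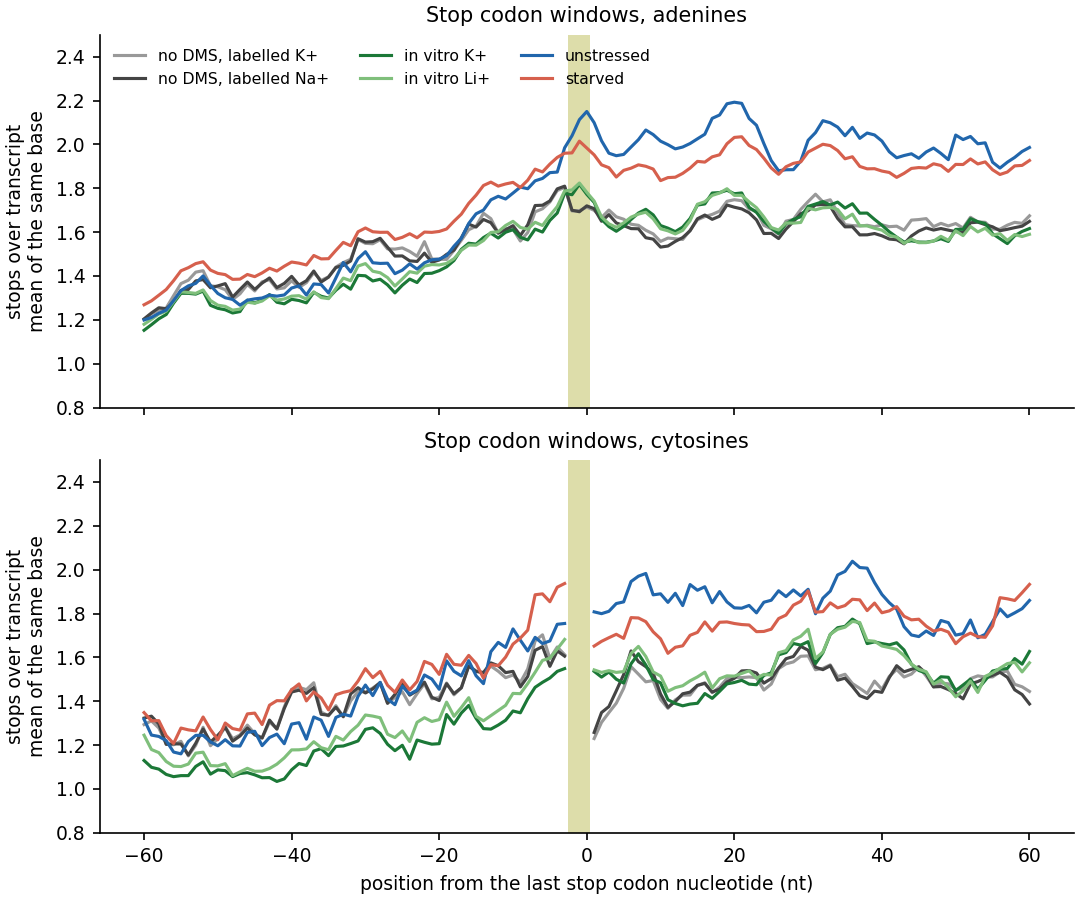
Level at adenines (top) and cytosines (bottom) by position, as a running mean over 5 positions, for the 6 libraries; the x axis is the distance from the last stop codon nucleotide in nt and the band marks the stop codon. At both bases the unstressed library is the higher of the 2 in vivo libraries over most of the 3′ UTR side and the lower over most of the coding side, and the curves also cross at some positions away from the stop codon.

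By region, A was 1.08 times (1.07 to 1.09) as high in starved as in unstressed cells from 60 to 18 nt before the last stop codon nucleotide, with levels of 1.48 and 1.37. The ratio was 1.03 (1.02 to 1.04) over the next 15 nt up to the stop codon, with 1.82 and 1.77. In the stop codon itself it was 0.914 (0.897 to 0.932), with 1.99 and 2.18. It was 0.943 (0.932 to 0.955) over the first 15 nt of the 3′ UTR, with 1.89 and 2.01, and 0.956 (0.949 to 0.963) from there to 60 nt. C, which no stop codon holds, gave 1.06 (1.05 to 1.08) in the coding flank, 1.03 (1.00 to 1.05) next to the stop codon, 0.908 (0.890 to 0.925) over the first 15 nt of the 3′ UTR and 0.970 (0.959 to 0.982) beyond. So over all windows the starved library was the higher at both bases before the stop codon and the lower after it. Over the 15 nt before the stop codon the excess was seen in the UAA windows alone, with ratios of 1.125 at A and 1.18 at C, while the ratios were 0.927 and 0.919 in the UAG and 0.977 and 0.956 in the UGA windows. In the first 15 nt after the stop codon the ratios were under 1 at both bases for all 3 stop codons, from 0.812 to 0.964. Beyond 15 nt, C in starved cells was 1.02 times as high in UAA windows. Over the windows of all 3 stop codons with a mean of at least 3 stops per C in each DMS library, C there was 1.03 times (1.02 to 1.05) as high in starved cells, so at C the order beyond 15 nt turned with this minimum. The ratios of single regions turned with the averaging. As summed counts over summed means, in which the deepest transcripts weigh most, A was 1.03 in the stop codon and 1.09 in the first 15 nt after it, and with at least 10 stops per C in each DMS library the ratio at C there was 1.10. The ratio of the steps stayed under 1 in all of its 11 alternatives, from 0.854 to 0.957.

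Against RNA refolded in vitro in K+, A in unstressed cells was 1.04 times (1.04 to 1.05) as high in the coding flank, 1.12 times (1.10 to 1.13) next to the stop codon, 1.20 times (1.18 to 1.22) in it, 1.21 times (1.20 to 1.23) over the first 15 nt of the 3′ UTR and 1.22 times (1.21 to 1.23) beyond. The excess at A over the in vitro level thus grew toward the stop codon and then held over the 3′ UTR side. Part of it was common to the whole window, over which A stood at 1.74 in unstressed cells and 1.52 in vitro in K+. Divided by the ratio of the same 2 libraries at that base over the whole window, the ratio at A was 1.05 in the stop codon. It was then 1.06 at A and 1.07 at C in the first 15 nt after it. At C the ratio was 1.15 (1.14 to 1.17) in the coding flank, 1.18 (1.15 to 1.20) next to the stop codon, 1.27 (1.24 to 1.29) in the first 15 nt after it and 1.17 (1.16 to 1.19) beyond, so at C the excess was largest right after the stop codon and then returned to about the level before it. In vitro the cation moved A and C little, with K+ over Li+ ratios over the whole window of 0.995 (0.991 to 0.999) at A and 0.973 (0.966 to 0.980) at C.

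To set the step beside other places in the same mRNAs, the same average was taken at boundaries displaced by 150 nt up- and downstream in the 660 transcripts with room for both. At the stop codon of these transcripts the step was 1.09 with RT in labelled K+ and no DMS, 1.24 for RNA refolded in K+, 1.42 in unstressed and 1.21 in starved cells. At the upstream boundary they were 0.984, 0.977, 1.05 and 1.02 and at the downstream boundary 0.956, 0.946, 0.967 and 1.00. The step of each of these 4 libraries was larger at the stop codon than at both displaced boundaries, with intervals that do not overlap. The starved-over-unstressed ratio of the steps was 0.853 (0.844 to 0.863) at the stop codon, 0.967 (0.955 to 0.979) upstream and 1.04 (1.03 to 1.05) downstream. In the 134 of these transcripts with at least 10 stops per nucleotide of the base, it was 0.902 (0.890 to 0.913) at the stop codon and 0.918 (0.905 to 0.931) upstream, intervals that overlap, and 1.02 (1.00 to 1.03) downstream. So in these transcripts the stop codon and the boundary within the coding sequence could not be told apart by counting error, whereas in the 660 their intervals do not overlap. Unstressed over in vitro K+ gave 1.14 (1.13 to 1.16) at the stop codon, 1.08 (1.06 to 1.09) upstream and 1.02 (1.01 to 1.03) downstream in the 660 transcripts, and 1.12 (1.11 to 1.14), 1.13 (1.12 to 1.15) and 1.01 (0.999 to 1.03) in the 134. Along the 660 transcripts, the unstressed library was the lowest of the 6 in the most upstream stretch, at 1.14, and the highest in the most downstream one, at 1.79.

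**Figure D2:**
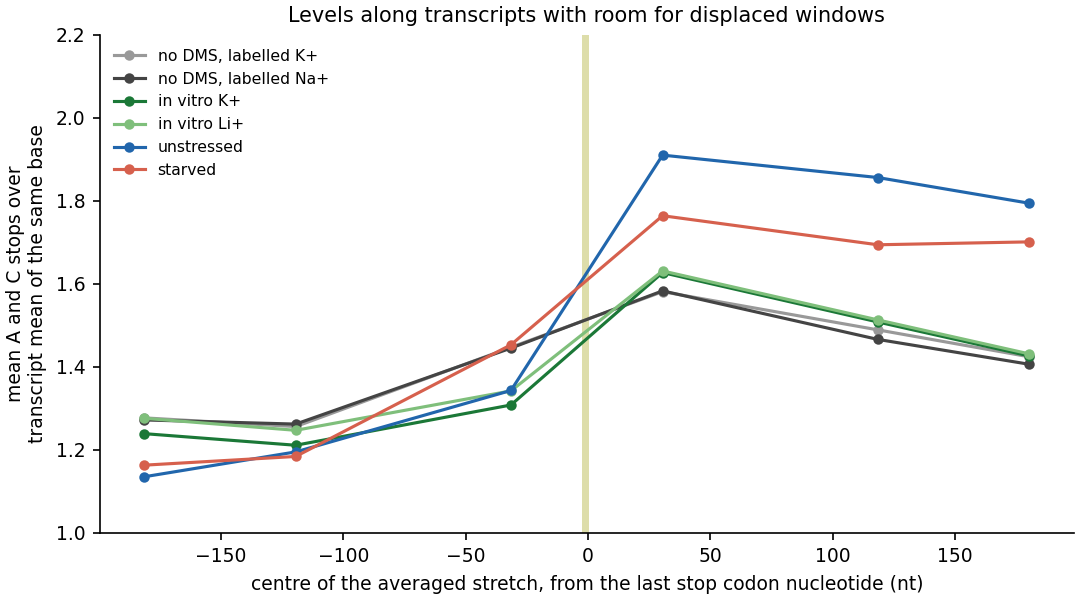
Mean level at A and C in 6 stretches along 660 transcripts, plotted at the centre of each stretch in nt from the last stop codon nucleotide; points are libraries and the band marks the stop codon. The unstressed library rises from 1.34 to 1.91 across the stop codon and stays above the other 5 libraries in all 3 stretches after it.

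Window by window, 904 of 1012 windows had at least 30 stops at A and C on each side of the stop codon in both in vivo libraries, and the other 108 were not compared. The step was larger in unstressed than in starved cells in 523 of these (57.9%), with a median ratio of 1.12 and quartiles of 0.796 and 1.52. At displaced boundaries it was larger in 277 of 508 (54.5%) upstream and in 245 of 550 (44.55%) downstream. At the stop codon it was larger by at least 1.25-fold in 383 windows (42.4%), where displaced boundaries gave 31.6% and the upstream one alone 35.4%. It was smaller by at least 1.25-fold in 234 windows (25.9%), where displaced boundaries gave 29.9% and the upstream one alone 27.0%. The displaced boundaries, up- and downstream pooled, are those of the 660 transcripts with room for both. The stop codon shares are over all windows with enough stops, so the sets of transcripts differ. Against RNA in vitro in K+, 343 of 927 windows (37.0%) had a step at least 1.25-fold larger in unstressed cells, beside 33.6% at displaced boundaries and 37.9% at the upstream one, so single windows showed no excess there over a boundary within the coding sequence. For starved cells against RNA in vitro in K+, 175 of 929 (18.8%) were larger and 181 (19.5%) smaller by this fold, beside 26.4% and 15.4% at displaced boundaries.

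**Figure D3:**
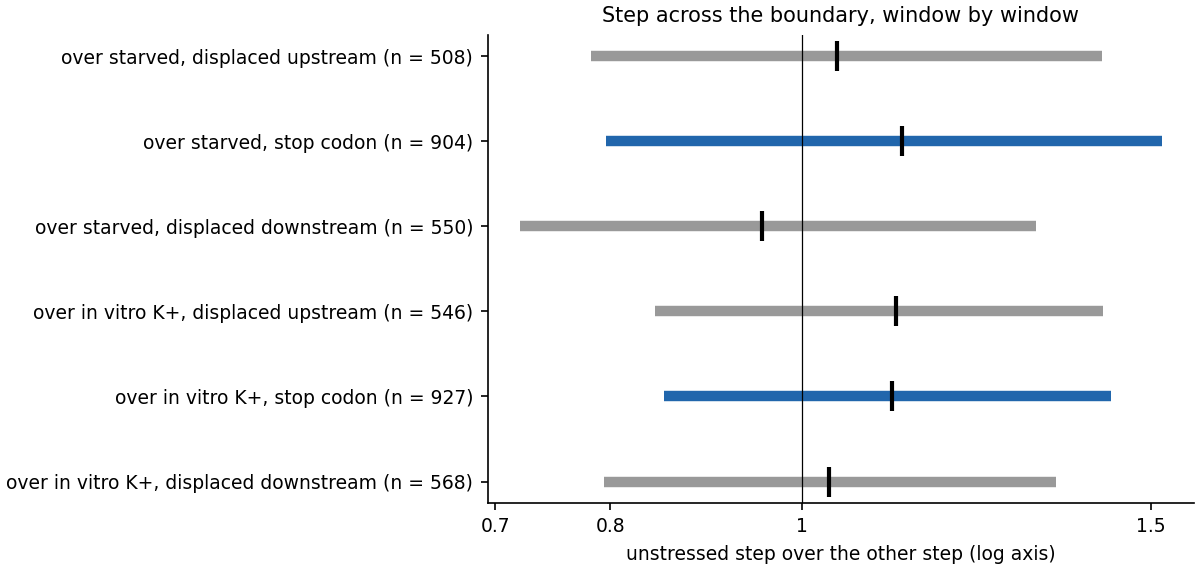
Ratio of the step in the unstressed library to the step in starved cells or in vitro in K+, window by window; bars run between the quartiles, ticks mark the median, and the axis is logarithmic. Against starved cells the median is 1.12 at the stop codon, 1.04 at the upstream and 0.955 at the downstream displaced boundary. The displaced boundaries are from the 660 transcripts with room for both, and the stop codon from all windows compared.

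Within the stop codon, the 2 A of UAA had the highest levels of the 4 stop codon A in each of the 4 DMS libraries. The A in the middle of UAA stood at 2.22 (2.17 to 2.28) in vitro in K+, 2.26 in Li+, 2.47 (2.40 to 2.53) in unstressed and 2.32 (2.27 to 2.37) in starved cells. Its last A stood at 2.03, 2.03, 2.42 and 2.19 in the same order. The A of UAG stood at 1.38 (1.32 to 1.44) in vitro in K+, 1.40 in Li+, 1.84 (1.76 to 1.91) in unstressed and 1.50 (1.44 to 1.56) in starved cells. The A of UGA stood at 1.46, 1.53, 1.86 and 1.75. Unstressed over in vitro K+ was thus 1.33 (1.26 to 1.41) at UAG, 1.28 (1.22 to 1.33) at UGA, and 1.11 (1.07 to 1.15) and 1.19 (1.15 to 1.23) at the middle and last A of UAA, with intervals for UAG and UGA that overlap. Starved over unstressed was 0.815 (0.770 to 0.862) at UAG, 0.938 (0.902 to 0.976) at UGA, and 0.940 (0.909 to 0.972) and 0.907 (0.876 to 0.938) at UAA.

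The same triplets elsewhere in the windows, in any frame, show what the letters alone give. At UAA on the coding side, the middle A stood at 1.75 in vitro in K+ and 1.64 in unstressed cells, and the last A at 1.65 and 1.63. The A of UAG there stood at 1.32 and 1.23. So in the coding sequence these A were lower in unstressed cells than in vitro or level with it, with ratios of 0.935 (0.896 to 0.977), 0.983 (0.940 to 1.03) and 0.932 (0.876 to 0.990), whereas in the stop codon they were higher. On the 3′ UTR side the ratios were 1.07 (1.04 to 1.10) and 1.12 (1.10 to 1.15) at the A of UAA and 1.17 (1.13 to 1.22) at that of UAG. The A of UGA gave 1.14 (1.11 to 1.17) on the coding side and 1.29 (1.26 to 1.32) on the 3′ UTR side. The A of UAG was the one A whose ratio in the stop codon lay above that of both sides with intervals that do not overlap. These are counting intervals over different sites, so they do not show whether the UAG stop codon differs beyond the spread between sites. Starved over unstressed was above 1 at the A of UAA and UAG on the coding side, from 1.10 to 1.16, and under 1 at all 4 A of the stop codons. It was 1.025 at the A of UGA on the coding side. On the 3′ UTR side it was 0.912 at UAG, 0.930 at UGA, and 1.05 and 0.995 at the middle and last A of UAA. Ratios under 1 at UAG and UGA were thus not particular to the stop codon.

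**Figure D4:**
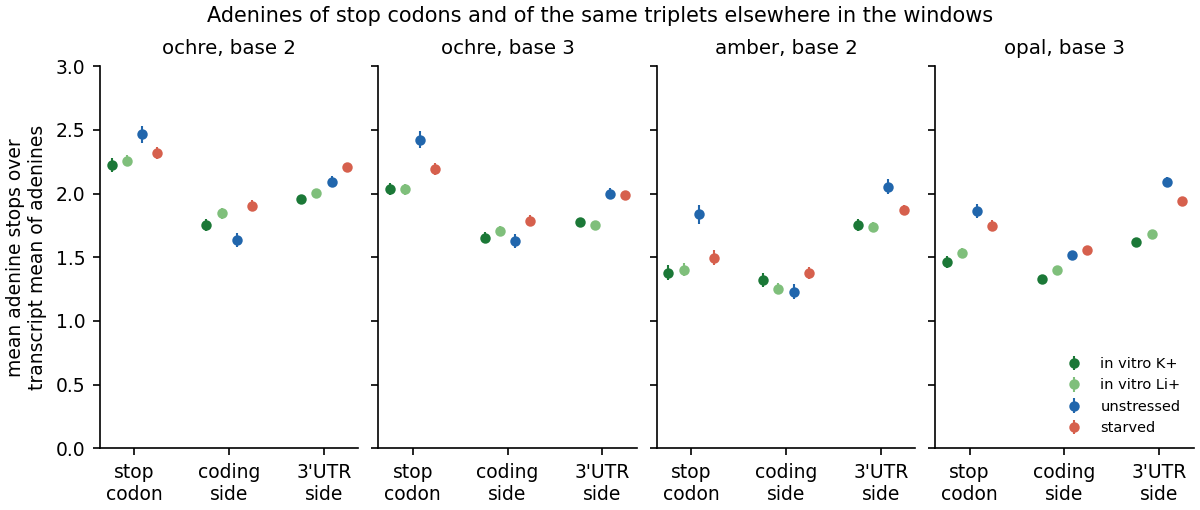
Mean level of adenines in ochre (UAA), amber (UAG) and opal (UGA) stop codons and in the same triplets before and after them, in the 4 DMS libraries; bars are 95% counting intervals and base 1 is the first of the triplet. At the stop codon the unstressed library is the highest of the 4 in every panel.

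Without DMS, U and G of the stop codon were compared with the same letters elsewhere. The U of the stop codon stood at 2.05 in the library labelled K+ and at 2.03 in the one labelled Na+, above 1.58 and 1.57 over the 15 nt before it and 1.57 and 1.56 over the 15 nt after it. It was 2.70 at UAA, 1.58 at UAG and 1.68 at UGA in the library labelled K+. The G of UGA stood at 2.35 (2.29 to 2.42) in the library labelled K+ and 2.17 (2.10 to 2.23) in that labelled Na+. The G of the same triplet stood at 2.31 on the coding side and 2.66 on the 3′ UTR side in the library labelled K+, so over all windows the G of the stop codon did not stand above the same letters on the 3′ UTR side. At UAA the U of the triplet stood at 2.24 on the coding and 2.29 on the 3′ UTR side, under the 2.70 (2.63 to 2.77) of the stop codon. At UAG the order was the opposite, with 1.58 (1.51 to 1.66) in the stop codon, 1.84 on the coding and 2.11 on the 3′ UTR side. At UGA the U of the stop codon, at 1.68 (1.63 to 1.74), lay near the 1.65 of the coding side and under the 1.89 of the 3′ UTR side. With a mean of at least 3 in each DMS library the orders at UGA turned, in few windows. The U of the UGA stop codon then stood at 1.63 (1.57 to 1.71, 27 sites), above 1.39 and 1.34 on the coding and 3′ UTR sides, and its G at 2.45 (2.37 to 2.54, 75 sites), above 1.975 and 2.30. The U of UAG then stood at 1.61 (13 sites), above 1.31 on the coding side and under 2.00 on the 3′ UTR side. So of these the U of UAA alone stood above the same letters on both sides in both sets of windows.

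The base after the stop codon was A in 375 windows (37.2%), G in 306 (30.3%), C in 171 (16.95%) and U in 157 (15.6%). An A at this place stood at 1.785 in vitro in K+, 2.10 in unstressed and 2.05 in starved cells, and a C at 1.75, 1.81 and 1.63. Without DMS a C there was low, at 1.20 and 1.22. On the coding side, C at codon position 1 stood at 1.57 in unstressed cells, above 1.26 at codon position 2 and 1.38 at position 3. Starved cells had the same order, with 1.63, 1.34 and 1.45. In vitro in K+ the values were 1.24, 1.14 and 1.25, so position 1 was 1.27 times as high in unstressed cells as in vitro, and positions 2 and 3 were 1.11 and 1.10 times as high. After the stop codon the same 3-nt count gave 1.85, 1.88 and 1.82 in unstressed cells.

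G and U need the listing limit beside them. Over the whole window, U in starved cells was 1.48 times (1.45 to 1.50) and G 1.20 times (1.19 to 1.21) as high as in unstressed cells. Where the base had a mean of at least 3 stops in each DMS library (92 windows for U and 205 for G), the ratios were 1.07 and 1.03, and with a mean of at least 10 (13 and 69 windows) they were 1.28 and 1.11. In vitro, G in K+ over Li+ was 0.939 (0.931 to 0.947) over all windows and 1.01 (0.996 to 1.02) in the 205 windows with this mean. The size of the differences at U and G thus moved with the depth of the windows kept, and no order by depth held.

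Strong stops at G differed between the 2 libraries without DMS. A G was called where its level was at least 10 in one library and at least 2-fold that in the other, with an unlisted count taken as 2. In the windows, 77 of 29120 G (0.264%) in 43 windows were called higher in the library labelled Na+, where 0.162% of all G of these transcripts were, and 4 (0.0137%) higher in the library labelled K+, where 0.00439% were. Of the 77, 31 lay on the coding side (0.199% of its G), 46 on the 3′ UTR side (0.357%) and none in a stop codon. Averaged over all G of the windows, the interval of the difference holds 1, with a ratio of the library labelled K+ to that labelled Na+ of 1.00 (0.994 to 1.01). The library with most of these stops is the one whose label is Na+ and whose deposited file name gives K+. The study describes the halt of RT at rG4s as dependent on K+, and reports stops that were stronger in K+ than in Na+. Whether the labels or the file names give the right cations was not tested.

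The 5 windows with the strongest such stops were those of MAGEA4, NAXE, NASP, MAGOH and ERH. At the G 43 nt after the stop codon of MAGEA4, a cancer-testis antigen, the level was 0.932 in the library labelled K+ and 113 in that labelled Na+, 17.3 in K+ and 7.58 in Li+ in vitro, 5.07 in cells without stress and 8.12 after starvation. In ERH, a small conserved nuclear protein, the G at 32 nt stood at 1.13 and 71.5 without DMS, at 22.9 in refolding K+ and 8.40 in Li+, 2.96 in cells without stress and 13.2 after starvation, from 18 and 396 stops in vivo. In MAGOH, a core subunit of the exon junction complex, the G at 34 nt stood at 2.60 and 94.6 without DMS, 14.6 and 7.96 in vitro, 5.56 in unstressed and 27.9 in starved cells, the last 2 from 5 and 124 stops. In these 3 genes the level was higher in K+ than in Li+ in vitro and higher in starved than in unstressed cells, while in MAGEA4 the in vivo values rest on 15 and 31 stops. In NAXE, an enzyme that repairs damaged NAD(P)H, the G at 14 nt stood at 0.856 and 107 without DMS, but at 4.03 in K+ and 7.13 in Li+ in vitro, with 6 and 15 stops, and at 6.72 and 14.4 in unstressed and starved cells. In NASP, a histone chaperone, the G lay 32 nt before the end of the coding sequence and stood at 0 and 105 without DMS, 3.90 and 1.72 in vitro, and 4.28 and 4.66 in vivo, each of the last 4 from at most 8 stops. These windows were named for their difference without DMS, which is therefore a description.

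The letters of an rG4 were searched on the sense strand as GG in 4 runs or more, each with 1 to 9 nt between them. Of 1012 windows, 254 (25.1%) held them, beside 31.2% of windows displaced upstream into the coding sequence and 17.6% of windows displaced downstream. The displaced windows are those of the 660 transcripts with room for both, so the sets of transcripts differ. A called G higher in the library labelled Na+ was found in 37 of the 254 windows (14.6%) and in 6 of the 758 others (0.792%). Over all G of the windows with these letters, the level was 1.19 in the library labelled K+ and 1.36 in that labelled Na+, and without them 1.63 and 1.56. In vitro, K+ over Li+ at their G was 0.925, and 1.03 where G had a mean of at least 3. Starved over unstressed at their G was 1.08, under the 1.25 of windows without these letters. With a mean of at least 3 it was 0.953, beside 1.05 without these letters. On the 3′ UTR side it was then 0.897, beside 1.005 without them. The higher starved levels at the strongest G of MAGEA4, ERH and MAGOH were thus not seen over the G of such windows in this set. GGACU, the letters around many methylated adenines, stood in 134 windows (13.2%), beside 9.85% and 10.0% of displaced windows, again of the 660 transcripts alone. On the 3′ UTR side the A of GGACU was low in DMS libraries, at 0.930 in vitro in K+, 1.24 in unstressed and 1.32 in starved cells (78 sites), where other A stood at 1.66, 2.02 and 1.92, while without DMS it stood at 1.49 and 1.50 beside 1.66 and 1.63. On the coding side (67 sites) it was nearer to other A in these 3 DMS libraries, at 1.21, 1.36 and 1.36 beside 1.385, 1.48 and 1.57.

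Genes were then grouped. Of the 77 windows of ribosomal protein mRNAs, 66 had enough stops for the step of both in vivo libraries, and 20 of these had the larger step in unstressed cells, with a median ratio of 0.791, where over all windows 523 of 904 had it, with a median of 1.12. Their averaged steps were 0.831 for labelled K+ without DMS, 0.895 for RNA refolded in K+, 0.780 in unstressed and 0.873 in starved cells, so the level fell across the stop codon in these mRNAs in all 6 libraries, with 0.813 in the library labelled Na+ and 0.891 in vitro in Li+. Only 34 of the 77 windows were whole, since many of these transcripts were listed for less than 60 nt after the stop codon. In these the starved-over-unstressed ratio of the steps was 0.960 (0.934 to 0.986), against 1.12 (1.10 to 1.14) in all 77, and 12 of 27 windows had the larger step in unstressed cells. Over all whole windows the ratio was 0.870 and 504 of 815 had the larger step in unstressed cells, and for the other genes the ratio was 0.869 (0.861 to 0.877), an interval that does not overlap that of the ribosomal protein windows. RNA fragments were cut to a narrow length before RT, so stops near the end of a transcript can be missed, and its part in the difference was not tested. Only reads with a unique match were kept, and ribosomal protein genes have near-identical copies. Whether such copies were in the mapping reference was not tested, so their levels are given as uncertain. In RPS26 no step could be given for want of stops before the stop codon, and RPL31, RPS20 and RPS29 had no listed A or C stop in the unstressed window.

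Of 11 genes known for readthrough, 3 had a window. In MDH1, malate dehydrogenase, whose extended form reaches peroxisomes, the step was 1.35 and 1.40 without DMS, 1.09 for RNA refolded in K+ and 1.28 in Li+, 0.871 in cells without stress and 1.33 after starvation. In LDHB, a lactate dehydrogenase subunit with such an extended form, it was 1.17, 1.07, 1.13, 1.28, 1.56 and 1.01 in the same order. In MTCH2, a carrier protein of the outer mitochondrial membrane, it was 1.67, 1.67, 1.29, 1.23, 1.28 and 1.56. LDHB thus had its largest step in unstressed cells, while the other 2 had theirs without DMS. The A of the UGA in LDHB stood at 0.465 and 0.598 without DMS, 0.877 and 0.891 in vitro, 2.00 in unstressed and 1.89 in starved cells, from 107 and 346 stops in vivo. That of MDH1 stood at 0.226, 0.587, 1.29, 1.25, 1.82 and 1.83, from 15 and 53 stops in vivo. In both windows that hold UGACUA, the A of the stop codon was higher in the in vivo than in the in vitro libraries, and so was that of MTCH2, at 6.06 and 3.41 against 2.84 and 2.65, from 26 and 24 stops in vivo. The same order held for the A of all UGA stop codons, at 1.86 and 1.75 in vivo and 1.46 and 1.53 in vitro, so it was not particular to these genes.

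Of 16 factors of termination and mRNA decay, 4 had a window, and 1 of the 4 had the larger step in unstressed cells. Over all windows 523 of 904 had it, and 4 windows are too few to set apart from this share. ETF1, the release factor that reads all 3 stop codons, had a step of 1.84 in vitro in K+, 1.20 in unstressed and 1.59 in starved cells, from 198 and 220 stops at A and C in vivo. EIF5A, which helps ribosomes elongate and terminate, had 2.93, 3.35 and 1.60, the last from 178 stops at A and C. PABPC4, a poly(A)-binding protein, had 1.49, 1.32 and 1.95. PABPC1, the main poly(A)-binding protein, had 4.71, 2.47 and 10.4, but also 17.6 and 17.3 without DMS, and near-identical copies of this gene make its level uncertain. Among the 6 genes the study names for rG4s or as a control, ACTB, cytoplasmic actin, had a window. Its step was 1.35 and 1.33 without DMS, 1.24 and 1.39 in vitro, 0.697 in unstressed and 1.43 in starved cells, so unstressed cells were the one library with a fall across the stop codon.

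Among the windows with most stops, EEF1A1, the elongation factor that brings tRNAs to the ribosome, had a step of 1.33 and 1.30 without DMS, 2.01 for RNA refolded in K+ and 1.82 in Li+, 2.49 in cells without stress and 1.55 after starvation. RPL4, a protein of the large ribosomal subunit, had 1.27, 1.22, 1.73, 1.89, 2.10 and 1.46. In both, the step was largest in unstressed cells and smaller in starved cells than in vitro. GAPDH, a glycolytic enzyme, went the other way in vivo, with 0.936, 0.910, 0.836, 0.749, 0.723 and 1.05. RPL9 and RPL37, with 1.08 and 0.456 in unstressed and 1.06 and 0.462 in starved cells, hardly differed. RPLP1, a stalk protein of the large subunit, had 0.127 in unstressed and 0.279 in starved cells, but its transcript was listed for only 16 nt after the stop codon. EEF1A1, GAPDH, ACTB and these ribosomal protein genes have near-identical copies in the genome, so their levels are uncertain where reads could not be placed.

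The share of a transcript's A and C stops that falls in its window gives the weight of the window as a whole. It was compared in the 934 windows with at least 100 such stops in each in vivo library, and the median of the starved share over the unstressed share was 0.974, with quartiles of 0.827 and 1.15. It was at least 1.25-fold higher in starved cells in 154 windows (16.5%), beside 14.3% of displaced windows, and at least 1.25-fold lower in 195 (20.9%), beside 27.0% of displaced windows. The displaced windows are from the transcripts with room for both alone, so the sets of transcripts differ. The share of higher windows was thus near the background, and that of lower windows was under it.

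The 16 windows at the ends of this order were named for it, so their ratios are a description. In RPN2, a subunit of the enzyme that adds N-glycans, the share was 8.75% and 8.54% without DMS, 5.15% and 5.55% in vitro, 5.14% in unstressed and 13.1% in starved cells, a ratio of 2.55. CDC20, which activates the anaphase-promoting complex, had 10.5%, 9.55%, 10.1%, 9.01%, 14.9% and 32.3%, and CAPRIN1, a stress granule protein, had 4.22%, 4.73%, 4.13%, 3.92%, 1.73% and 3.68%. In RPN2 and CDC20 the starved library stood above all others, whereas in CAPRIN1 the unstressed library stood below all others. CAPZA1, which caps actin filaments, went like CAPRIN1, with 1.49% in unstressed and 3.15% in starved cells and 4.47% to 4.90% in the other 4 libraries. RPS23, GARS1 (glycyl-tRNA synthetase), RPS26 and RPL34 had ratios from 1.97 to 2.05.

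At the other end, BUD31, a splicing factor, had a share of 4.93% and 5.80% without DMS, 8.96% and 8.59% in vitro, 20.7% in unstressed and 7.77% in starved cells, a ratio of 0.376. CDC123, which assembles the initiation factor eIF2, had 4.24%, 5.15%, 6.08%, 6.89%, 13.4% and 6.04%, and ACP1, a phosphatase, had 6.62%, 6.39%, 8.97%, 10.8%, 17.4% and 8.46%. In these 3 genes the unstressed library alone stood high and the starved library was near the in vitro ones. PRMT1, an arginine methyltransferase, ANP32E, a histone chaperone, RWDD1 and LSM1, a decapping cofactor, went the same way, with ratios from 0.491 to 0.526. PGAM1, a glycolytic enzyme with near-identical copies, differed from them, since its 3.73% in starved cells stood under the 6.93% to 8.03% of the other 5 libraries.

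**Figure D5:**
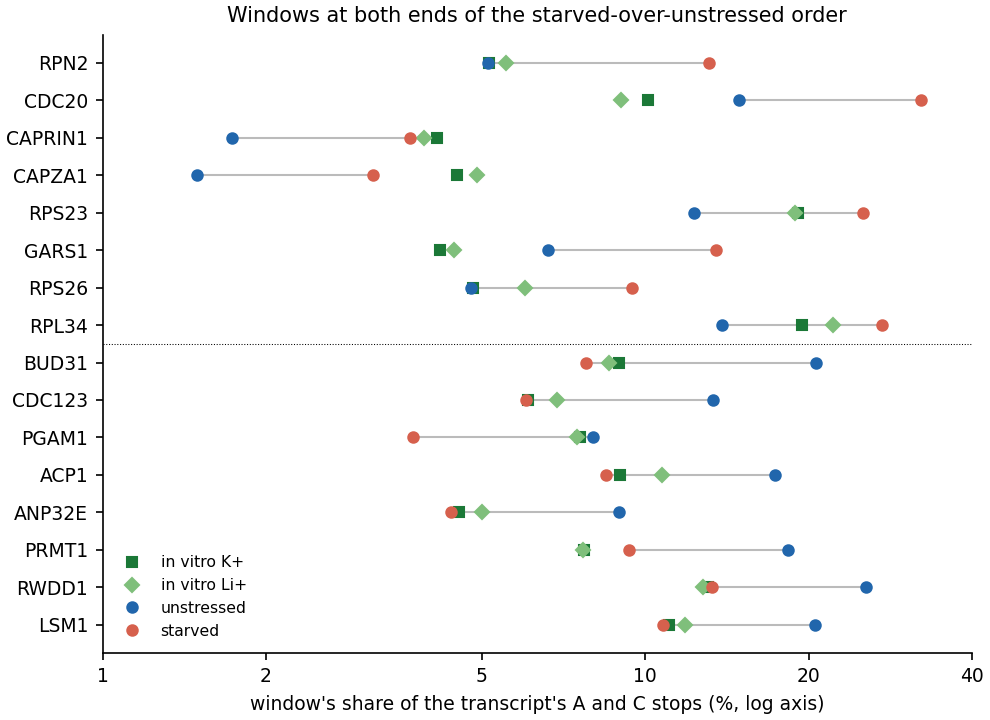
Share of the A and C stops of a transcript that fall in its stop codon window, in percent on a logarithmic axis, in the 4 DMS libraries for the 8 windows with the highest (top) and the 8 with the lowest (bottom) starved-over-unstressed ratio; grey lines join the 2 in vivo values. In all 8 lower windows the unstressed share is the highest of the 4, from 8.03% in PGAM1 to 25.5% in RWDD1.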

How the data were processed

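In total 6 libraries were analysed, 1 for each condition. The authors sized the RNA fragments, used Bowtie to place reads on transcripts of hg19, kept reads with 1 perfect match, dropped duplicates and deposited a count of RT stops per nucleotide. Nucleotides with fewer than 3 stops are not in the deposited lists. The deposited ratio of each nucleotide is its count over the transcript mean of the same base, from which that mean was recovered. Bowtie and hg19 are named in the submitters' processing notes, without a version.

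The bases in each list were compared with GENCODE release 44 on GRCh37, and a match needed 97% identity and 80% coverage. A transcript was taken to end at its last listed nucleotide in any library. Levels are means over nucleotides of count over mean. Their 95% intervals are gamma intervals for weighted Poisson counts, those of ratios are log-normal, and both cover counting error only. Depth sets their width, and the unstressed library had the fewest counts. No test between conditions was possible with 1 library each.

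Named windows were chosen by rule: the 8 highest and 8 lowest ratios of share, the 6 with most stops, genes of the study, of readthrough and of termination, and the 5 strongest cation-dependent stops at G. The members and lists were chosen with earlier results of these data known. The calculation was tested on simulated data and recovered the simulated ratios where counts were high, but not where many nucleotides fell under the listing limit. Calculations ran in Python 3.11.15 with scipy 1.17.1 for the intervals, numpy 2.4.6 and pandas 2.3.3 for the averages, and figures were drawn in matplotlib 3.10.9. Alternatives on the minimum, the averaging, the listing limit, the cap, the window and the labels were tried.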

Additional observations from a re-analysis of the deposited data

How the results depend on the processing

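No paired analysis was possible because each condition had 1 library. The ratio of the steps kept its direction under all alternatives run, from 0.854 to 0.957 for starved over unstressed (11) and from 1.03 to 1.14 for unstressed over in vitro K+ (10). Of 123 alternative values, 50 moved by less than their counting interval, 65 moved by more than that, and 8 reversed. The ratio at G without DMS, 0.9998 with all choices as reported, lies at 1, so its shifts to either side of 1, from 0.992 to 1.03, were not counted as reversals. The cause of these shifts was not tested. The alternatives on whole windows, on the mean of the base and on starved counts under 6, and those on the steps, were chosen after seeing the data.

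In this paragraph S is starved over unstressed, V is unstressed over in vitro K+, KL is K+ over Li+ at G in vitro, and KN is labelled K+ over labelled Na+ at G. At a transcript minimum of 0.5 (1595 windows), S was 0.931 at A and 0.876 at C in the first 15 nt of the 3′ UTR, 1.04 at A before the stop codon and 0.877 for the step, V was 1.13 for the step, KL 0.915 (0.9145) and KN 1.01. At a minimum of 2 (582 windows), S was 0.942 at A in the stop codon, 0.979 (0.9785) at A and 0.928 at C after it, 1.01 before it and 0.940 for the step, V was 1.16 in the stop codon, 1.20 at A after it and 1.06 for the step, and KL 0.975. Pooled averages reversed S at A in the stop codon (1.03), at A after it (1.09) and at C after it (1.015), and gave S of 1.10 before it, V of 1.12 in it, 1.13 at A and 1.18 at C after it and 1.03 for the step, and KL of 0.973. With at least 200 nt on each side (671 windows), S was 0.925 at A and 0.8775 at C after the stop codon, 1.045 before it and 0.854 for the step, V was 1.16 in it, 1.18 at A and 1.23 at C after it and 1.14 for the step, and KN 1.01. Means rebuilt from listed counts gave S of 0.892 in the stop codon, 0.916 at A after it and 1.005 before it, V of 1.24 and 1.25 at A in and after it, and reversed KL (1.003). With unlisted nucleotides counted as 1, S at C after the stop codon was 0.934 and for the step 0.913, V at C after it was 1.23, and KL reversed (1.003). Division of V by its value at the same base over the whole window gave 1.05 in the stop codon and 1.06 at A and 1.07 at C after it. A cap of 10 gave KN of 1.03. In whole windows, S was 0.884 in the stop codon, 0.916 at A and 0.869 at C after it and 0.870 for the step, and V for the step was 1.13. With a base mean of at least 3, S at C after the stop codon was 0.941 and for the step 0.909, V was 1.24 at C after it and 1.11 for the step, and KL reversed (1.006). With at least 10, S was 0.951 in the stop codon, 0.998 at A after it and 0.957 for the step, reversed at C after it (1.10), V was 1.15 in it, 1.185 at A and 1.17 at C after it and 1.07 for the step, KL 0.984 and KN 0.992. Without starved counts under 6, S was 0.880 in the stop codon, 0.906 at A and 0.742 at C after it and 0.9175 for the step, and reversed before it (0.982).

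Nucleotides with fewer than 3 stops were not listed, which limits U, G and the unstressed library most, and without replicates the spread between cultures is unknown.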
